A study of Arabidopsis thaliana with 24 samples.

Results

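The transcripts of 2 insertion mutants were compared with those of their wild type in seedlings that had received no chitin. The comparison held 12 of the 24 arrays of the series, 4 of *atl9* mock, 4 of *rre2* mock and 4 of Col-0 mock. They were chosen by their titles alone and by no measured value. The question was which transcripts differed from Col-0 in both mutants alike before any elicitor was given, so the mean of the 2 mutant lines, each with equal weight, was set against Col-0. Both mutants are in the Col-0 background of *Arabidopsis thaliana*. The line *atl9* (*rre1-1* in the labels) carries the T-DNA insertion SALK_066755 in At2g35000, which is *ATL9*. The line *rre2* (*rre2-1*) carries the T-DNA insertion SALK_133789 in At3g16720, which is *ATL2*. Col-0 carries neither insertion. Seedlings of all groups spent 14 days in liquid medium under constant light and were used whole, and those of the mock groups received water for 30 min, which the labels call untreated. Each line is represented by 1 insertion allele, so a difference of the line from Col-0 cannot be told apart from any other difference between the seed stocks. The 4 arrays of a group are described as biological replicates, 1 array each. The other 12 arrays of the series are the same lines after 30 min with chitin at 100 mg per litre. These give the values of the same probe sets on other arrays. They also entered the ranking that chose the probe sets tested, and the estimate of the spread behind the mock p-values. The labels of the 4 Col-0 chitin arrays conflict, since title and source name give chitin while the description calls them untreated. They were taken as chitin, and every difference after chitin rests on that.

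The *ATL* genes of Arabidopsis encode RING-type E3 ubiquitin ligases, enzymes that pass ubiquitin to a target protein and so mark many targets for the proteasome. *ATL2* and *ATL9* are known for their quick induction by chitin, a polymer of fungal cell walls that plants perceive as a sign of attack through LysM receptor kinases. The mock seedlings had met no elicitor, so the comparison concerns the basal state.

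Levels are signals divided by the median of the array, so a level of 1 is the signal of the median probe set. Of the 16530 probe sets tested, 9010 matched 1 gene, 341 matched several and 7179 have no name in the annotation used here and are given by their identifier. The median deposited signal was 176 ± 8.77 (SD, n = 8) in the mutants and 176 ± 5.92 (SD, n = 4) in Col-0, with p = 0.980 in a two-sided exact permutation test. Replicates of a mock group correlated at 0.950 to 0.973. The transcripts of *ATL9* and *ATL2* are not analysed here, so the labels could not be checked on the targeted genes. Of the tissue markers listed, only 2 for flower and pollen were matched. *AGL66* lay at 0.0139 to 0.239 of the array median and *TUA1* at 3.50 to 5.53 over the 12 mock arrays, and the leaf, root and seed markers were not analysed here. Rubisco activase (*RCA*), a photosynthetic gene, stood at 33.1 ± 5.14 in Col-0, 35.3 ± 1.74 in *atl9* and 35.2 ± 6.83 in *rre2* (SD, n = 4 each). In whole seedlings fewer cells of a type and less RNA per cell cannot be told apart.

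One mock array stood apart from its group in the probe set that separated *atl9* from Col-0 most clearly. The unnamed probe set 267084_at read 13.6, 19.9, 15.2 and 11.7 times the array median in Col-0 mock replicates 1 to 4, and 1.07, 1.31, 1.99 and 1.37 times in *atl9* mock. In *rre2* mock it read 1.62 in replicate 1 and 15.4, 15.5 and 12.8 in the others. Replicate 1 of *rre2* mock thus lay inside the range of *atl9* and the other 3 inside the range of Col-0. Among the chitin arrays the levels of *atl9* were 4.85, 13.1, 4.16 and 6.04, those of Col-0 were between 11.4 and 18.9 and those of *rre2* between 12 and 21.1, so that *atl9* chitin replicate 2 lay within the other lines. In AT3G16530, a gene of the legume lectin family, *atl9* chitin replicate 2 read 125 against 53.5 to 61.6 on the other *atl9* chitin arrays. The *rre2* mock arrays were spread in this gene, with 29.2 on replicate 1, 47.1 and 47.4 on replicates 2 and 3, within the range of *atl9*, and 69.2 on replicate 4, within the range of Col-0, so it did not single out replicate 1. *QQS* did not show this, since *atl9* chitin replicate 2 read 0.242 and the other *atl9* chitin arrays 0.174 to 0.319. Why these arrays differ was not tested, and results are given with and without them where they change. The mean of the 8 mutant arrays does not depend on which mutant line an array belongs to.

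Transcripts that differed from Col-0 in both mutants alike were few. Of 16530 probe sets, 3 were higher in the mutants and 0 were lower at an adjusted p under 0.05 (limma with Benjamini-Hochberg adjustment), which is 0.0181% of those tested. At an unadjusted p under 0.05 there were 1143, or 6.91%, of which 642 (3.88%) were higher and 501 (3.03%) lower. The median absolute log2 difference over all probe sets was 0.12, beside a median standard error of 0.16. The 3 that passed were the unnamed 260385_at and 248547_at and the gene AT2G36440.

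The probe set 260385_at was about 2-fold higher in both mutants. It read 2.74, 2.3, 2.12 and 3 times the array median in Col-0, 4.37, 5.38, 5.70 and 5.91 in *atl9*, and 4.61, 5.64, 5.38 and 6.59 in *rre2*. Every mutant array lay above every Col-0 array. The log2 difference was 1.10 ± 0.17 (SE, adjusted p = 0.0231 in limma), a 2.15-fold higher level, with 1.08 ± 0.19 for *atl9* and 1.13 ± 0.19 for *rre2* taken singly. Of arrays scanned on the same day, the *rre2* array of day 1 (replicate 2) read 5.64 beside 2.74 in Col-0, and the *atl9* array of day 2 (replicate 2) read 5.38 beside 2.12. On scan day 4, which held 2 arrays of each group, the difference was 1.01 with an adjusted p of 0.649. After chitin the same probe set read 1.03 to 2.22 in Col-0, 3.43 to 4.45 in *atl9* and 3.25 to 4.89 in *rre2*. These 12 other arrays did not overlap between mutants and Col-0 either, and the difference there was 1.28 ± 0.17 (SE, adjusted p = 7.56e-05).

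The probe set 248547_at was higher by a smaller step. It read 0.413, 0.5, 0.584 and 0.439 in Col-0, 0.940, 0.742, 0.749 and 0.881 in *atl9*, and 0.816, 0.628, 0.734 and 0.755 in *rre2*. The groups did not overlap, and the nearest arrays were Col-0 replicate 3 and *rre2* replicate 2. The log2 difference was 0.69 ± 0.11 (SE, adjusted p = 0.0279), and it passed in *atl9* taken singly (0.78 ± 0.13, adjusted p = 0.0394) but not in *rre2* (0.60 ± 0.13, adjusted p = 0.344). After chitin it was 0.13 ± 0.11 with an adjusted p of 0.447. The change of the difference between the treatments was -0.56 ± 0.16 with an adjusted p of 0.0784, so a dependence on the treatment did not pass. Without *rre2* mock replicate 1 and *atl9* chitin replicate 2 the mock difference was 0.67 with an adjusted p of 0.0615.

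AT2G36440, which the study lists as a hypothetical protein, was the only named gene that passed. On the scale of the array median, Col-0 read 0.0111, 0.00647, 0.0368 and 0.00695, with 0.149, 0.0960, 0.177 and 0.0375 in *atl9*, and 0.0391, 0.0429, 0.155 and 0.196 in *rre2*. These are signals of 1.1 to 6.7 in Col-0 and 6.7 to 33.1 in the mutants, where the median of an array was near 176, so all 12 arrays were far below the median. The probe sets tested were ranked on mock and chitin arrays together, and the lowest mean among them was 0.152. The mock means of AT2G36440 were below that, at 0.0153 in Col-0, 0.115 in *atl9* and 0.108 in *rre2*. Its place among the probe sets tested therefore rested on its higher levels after chitin. The highest Col-0 array and the lowest *atl9* array nearly met, at 0.0368 and 0.0375. The log2 difference was 2.97 ± 0.50 (SE, adjusted p = 0.0325). With 32 signal units added before the logarithm it was 0.54 with an adjusted p of 0.618. In a limma fit of the 12 mock arrays alone the adjusted p of AT2G36440 was 0.290, so it did not pass. After chitin AT2G36440 read 1.49 to 4.16 in Col-0, 2.82 to 5.32 in *atl9* and 3.16 to 6.66 in *rre2*, and the mutants differed from Col-0 by 0.73 ± 0.50 (SE, adjusted p = 0.336). The gene is on a list that the study drew from the *atl9* and Col-0 arrays, so it is not independent evidence of a direction.

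**Figure D1:**
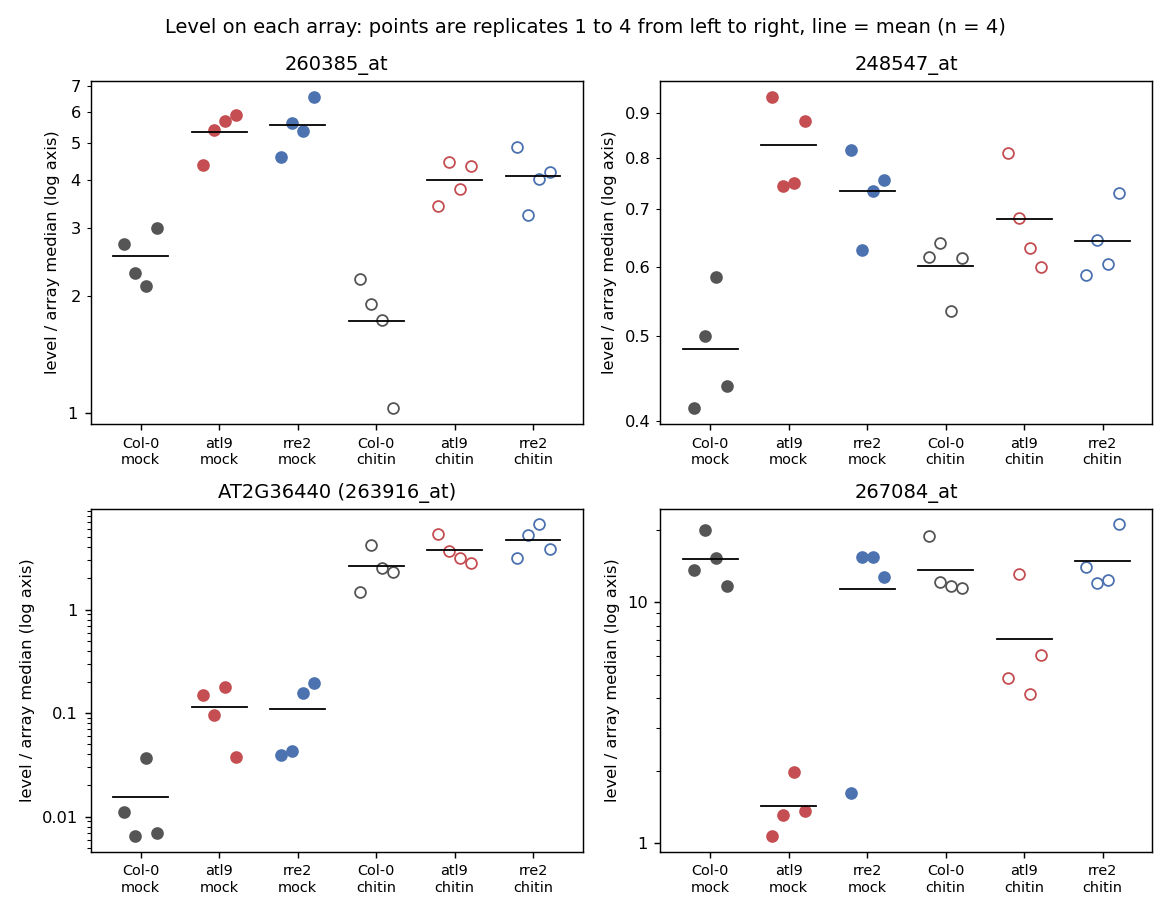
Level of 4 probe sets on each of the 24 arrays, as a multiple of the array median on a log axis, for Col-0 (grey), *atl9* (red) and *rre2* (blue), filled in mock and open after chitin. In 260385_at the mutants lay above Col-0 in both treatments, in 248547_at and AT2G36440 the groups separated in mock, and in 267084_at *rre2* mock replicate 1 (1.62) lay with *atl9*.

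The calls did not hold under all settings. Over the settings tried, 260385_at passed in 17 of 25, 248547_at in 11 of 24 and AT2G36440 in 11 of 25, and none changed direction. The mock arrays of all 3 did not overlap, so leaving out arrays could not change their direction. No probe set passed when replicate 1 or 2 of Col-0 mock, or replicate 3 or 4 of *rre2* mock, was left out, and 1 passed when replicate 4 of Col-0 mock was. Without *rre2* mock replicate 1, which stood apart in 267084_at, 4 passed, of which 3 were higher and 1 lower. Since that array was singled out by its value in 267084_at, this count is not independent of that probe set.

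**Figure D2:**
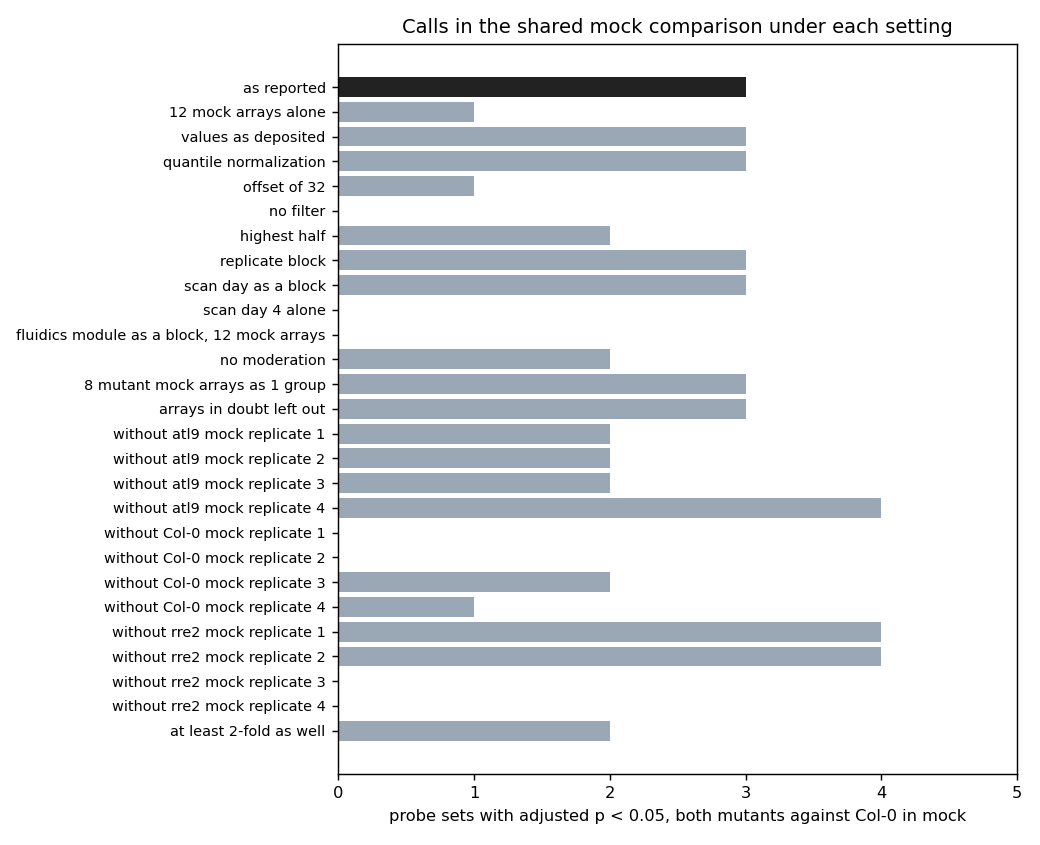
Number of probe sets with an adjusted p under 0.05 in the comparison of both mutants with Col-0 in mock, for the reported fit (black) and each alternative (grey). The counts lay between 0 and 4, and settings with no bar gave 0.

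With the 3 that passed included, 124 probe sets (0.75%) had all 8 mutant arrays above, or all 8 below, the 4 Col-0 arrays. Of these 78 (0.472%) were higher in the mutants and 46 (0.278%) lower, and 64 matched 1 gene. With the values as deposited the split was 71 higher and 69 lower, and after quantile normalization 69 and 77, so the split depended on the scaling. The median log2 difference was 0.41 among the higher and -0.42 among the lower, with median standard errors of 0.14 each.

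The 12 arrays after chitin took no part in the criterion of non-overlap that gave these 124 probe sets. They did enter the ranking that chose the 16530 probe sets tested, so the 124 are not wholly independent of them. Of the 78 that were higher in mock, 63 had a difference of the same sign after chitin and 30 passed there in that direction, which is 38.5%. Of the 46 that were lower, 38 kept their sign and 18 passed, which is 39.1%. Over all 16530 probe sets 57.8% had the same sign in both treatments and 10.4% passed after chitin with the sign they had in mock. In all, 2495 probe sets (15.1%) differed between the mutants and Col-0 after chitin, 1078 higher (6.52%) and 1417 lower (8.57%). The split depended on the scaling and on 1 array, with 1317 higher and 1351 lower for the values as deposited and 1049 higher and 949 lower without Col-0 chitin replicate 1. Passing in the direction opposite to mock were 1 of the 78 and 2 of the 46. The change of the difference between treatments passed in 199 probe sets (1.2%), among them 5 of the 78 and 3 of the 46.

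Of single-gene probe sets that were higher in both mutants without overlap, 9 with the smallest p are given here, and none of them passed after adjustment. *JAL33* encodes a jacalin-type lectin, a carbohydrate-binding protein. It read 39.0, 40.4, 49.4 and 50.0 times the array median in Col-0, 64.2, 69.7, 76.5 and 70.9 in *atl9*, and 75.2, 64.7, 83.0 and 64.6 in *rre2*. All mutant arrays were above all Col-0 arrays, with a log2 difference of 0.67 ± 0.16 (SE, adjusted p = 0.189). After chitin the difference passed at 0.90 ± 0.16 (SE, adjusted p = 0.000789).

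AT3G43270, of the pectin methylesterase family that removes methyl groups from pectin, read 1.58, 1.19, 1.3 and 1.49 in Col-0, 2.3, 2.12, 1.90 and 3.30 in *atl9*, and 2.69, 2.22, 2.26 and 2.60 in *rre2*. The difference was 0.79 ± 0.17 (SE, adjusted p = 0.159) in mock and 0.28 after chitin (adjusted p = 0.262). AT1G78060, of glycosyl hydrolase family 3, stood at 3.39 ± 0.398 in Col-0, 4.72 ± 0.431 in *atl9* and 4.29 ± 0.365 in *rre2* (SD, n = 4 each). Its difference was 0.41 ± 0.10 (SE, adjusted p = 0.268) in mock and -0.23 after chitin, and the change between treatments, -0.64, passed with an adjusted p of 0.0335. AT5G62360, of the family of invertase and pectin methylesterase inhibitors, was among the genes that were lower in the mutants without overlap. It read 2.86, 2.11, 2.64 and 2.88 in Col-0, 1.29, 1.2, 2.06 and 1.49 in *atl9*, and 1.11, 0.994, 1.47 and 1.14 in *rre2*. Col-0 replicate 2 and *atl9* replicate 3 were the nearest, at 2.11 and 2.06. The difference was -0.99 ± 0.24 (SE, adjusted p = 0.268) in mock and 0.27 after chitin (adjusted p = 0.487).

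*CYP71B26*, a cytochrome P450, stood at 3.53 ± 0.393 in Col-0, 4.95 ± 0.238 in *atl9* and 4.77 ± 0.706 in *rre2* (SD, n = 4 each). Its log2 difference was 0.46 ± 0.11 (SE, adjusted p = 0.271) in mock and passed after chitin at 0.56 (adjusted p = 0.00264). AT1G72160, of the patellin family of lipid-binding proteins with a Sec14 domain, differed by 0.41 ± 0.09 (SE, adjusted p = 0.159). After chitin it differed by 0.03. AT3G20300 stood at 0.680 ± 0.0921 in Col-0, 1.15 ± 0.0573 in *atl9* and 1.34 ± 0.241 in *rre2* (SD, n = 4 each), a difference of 0.87 ± 0.18 (SE, adjusted p = 0.159). AT5G15190 differed by 0.87 ± 0.20 (SE, adjusted p = 0.186) and after chitin by 1.12 (adjusted p = 0.000913). AT5G20700 differed by 0.58 and AT3G59020 by 0.35 in mock, with adjusted p values of 0.269 and 0.396, and after chitin the first passed at 0.47 (adjusted p = 0.0322) and the second stood at -0.06.

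On the lower side 0 passed, and the 10 named genes are those with the smallest p and no overlap. AT5G17930, a gene with an MIF4G domain, as found in translation initiation factors, had the smaller p of the 2 among these 20 genes whose difference depended on the treatment. It read 1.17, 0.967, 1.21 and 1.15 in Col-0 mock, 0.573, 0.915, 0.647 and 0.823 in *atl9*, and 0.696, 0.694, 0.794 and 0.639 in *rre2*. The mutants lay below Col-0 on every array, with a log2 difference of -0.65 ± 0.14 (SE, adjusted p = 0.159). After chitin Col-0 read 0.481 to 0.868 and the mutants 0.776 to 1.10, a difference of 0.43 ± 0.14 (SE, adjusted p = 0.0471). The change of the difference was 1.07 ± 0.20 and passed with an adjusted p of 0.0191.

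AT1G09575, of the family of mitochondrial calcium uniporters, stood at 0.668 ± 0.0446 in Col-0, 0.436 ± 0.0591 in *atl9* and 0.432 ± 0.0627 in *rre2* (SD, n = 4 each). The difference was -0.63 ± 0.14 (SE, adjusted p = 0.159). AT2G37890, of the mitochondrial carrier family, stood at 1.61 ± 0.202, 1.03 ± 0.181 and 1.07 ± 0.139 in the same order, a difference of -0.63 ± 0.14 (SE, adjusted p = 0.163). *MTP11*, a manganese transporter, read 3.78, 3.78, 3.94 and 3.38 in Col-0, 2.90, 2.53, 2.75 and 2.78 in *atl9*, and 2.85, 2.78, 2.70 and 2.96 in *rre2*. The mutant arrays spanned only 2.53 to 2.96, all below Col-0. The difference of *MTP11* was -0.42 ± 0.11 (SE, adjusted p = 0.396) in mock and passed after chitin at -0.41 (adjusted p = 0.0189). *YAB5*, a YABBY transcription factor of leaf polarity, differed by -0.41 ± 0.11 (SE, adjusted p = 0.457) in mock and passed after chitin at -0.34 (adjusted p = 0.0483). AT3G12710 differed by -0.84 ± 0.26 (SE, adjusted p = 0.544) and passed after chitin at -1.39 (adjusted p = 0.00121). AT4G39970, AT5G11240 and AT5G51960 differed by -0.62, -0.38 and -0.36 in mock, with adjusted p values of 0.396, 0.544 and 0.567. After chitin none of these passed, at -0.29, -0.31 and -0.25 with adjusted p values of 0.256, 0.0710 and 0.135. AT1G09575 and AT2G37890 did not pass after chitin either, at -0.09 and -0.31 (adjusted p = 0.689 and 0.135).

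**Figure D3:**
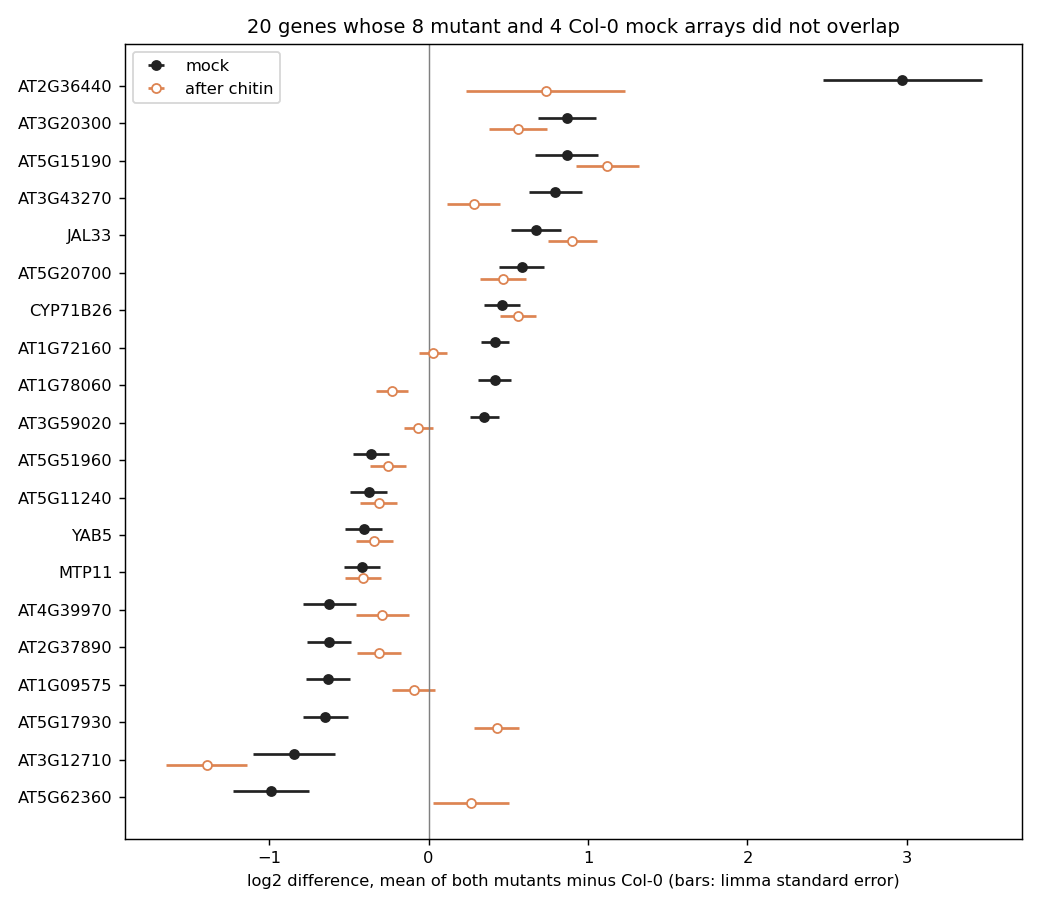
Log2 difference of the mean of both mutants from Col-0 for the 20 named genes whose mock arrays did not overlap, in mock (filled) and after chitin (open), with limma's standard error. In mock AT2G36440 at 2.97 passed and the other 19 did not. AT5G17930 stood at -0.65 in mock and 0.43 after chitin.

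*QQS*, a gene found only in Arabidopsis that affects starch content, was named after its values were seen. It read 0.651, 1.10, 0.748 and 0.866 in Col-0, 0.187, 0.270, 0.272 and 0.464 in *atl9*, and 0.357, 0.656, 0.586 and 0.351 in *rre2*. The *atl9* arrays were all below Col-0, while *rre2* replicate 2 (0.656) overlapped Col-0 replicate 1 (0.651). The shared difference was -1.18 ± 0.24 (SE, adjusted p = 0.159), with -1.55 ± 0.27 for *atl9* and -0.82 ± 0.27 for *rre2*, and after chitin it was -0.42 (adjusted p = 0.236).

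Transcripts encoded in the mitochondrial genome had a higher median difference than those of any nuclear chromosome or of the chloroplast. This split of the organelle list by genome was made after the values were seen, and no test was made over the group. Most of these genes encode subunits of respiratory complex I (*nad*) or of cytochrome oxidase (*cox*). Of 14 probe sets, 12 had a positive difference in mock and 4 (28.6%) were higher at an unadjusted p under 0.05, where 3.88% of all probe sets were, but 0 passed after adjustment. Their median difference was 0.39. The 14 probe sets are not 14 separate genes, since 2 are for *nad5* and several for *nad1*. Both of *nad5* are among the 4, so the shares do not count separate genes. The 66 probe sets of the chloroplast genome had a median of 0.02, and 1 was lower at that p. One of 2 probe sets for *nad5*, 257338_s_at, read 0.504, 0.359, 0.481 and 0.448 in Col-0, 0.433, 0.997, 1.18 and 0.943 in *atl9*, and 0.651, 1.07, 1.59 and 1.01 in *rre2*. All mutant arrays but *atl9* replicate 1 were above Col-0. The log2 difference was 1.06 ± 0.22 (SE, adjusted p = 0.159), and without *atl9* mock replicate 1 it was 1.21 with an adjusted p of 0.0111. The other *nad5* probe set, 257337_at, differed by 0.76 ± 0.29, *nad9* by 0.70 ± 0.27 and a probe set of *nad1*, 257322_at, by 0.38 ± 0.17 (SE). The suffix of 257338_s_at marks a probe set that can match more than 1 transcript, so its assignment is uncertain.

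The level of the 14 mitochondrial probe sets varied within each group, whose arrays were scanned on several days. Their median level was 0.680, 0.423, 0.894 and 0.537 on Col-0 mock replicates 1 to 4, 0.455, 0.717, 0.984 and 0.785 on *atl9*, and 0.685, 1.07, 1.28 and 0.962 on *rre2*. The groups overlapped. On scan day 1 Col-0 replicate 1 (0.680) was below *rre2* replicate 2 (1.07), while on scan day 2 Col-0 replicate 3 (0.894) was above *atl9* replicate 2 (0.717). Both Col-0 arrays of scan day 4 (0.423 and 0.537) were below both *rre2* arrays of that day (0.685 and 0.962), while the *atl9* arrays of that day read 0.455 and 0.785. Both arrays of day 3, which held no Col-0 mock array, were the highest of their lines. After chitin all 14 differences were positive, with a median of 0.78, and 6 passed as higher, where 6.52% of all probe sets did, among them *nad5* and *nad4L*. The part of the scan day in this was not tested.

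**Figure D4:**
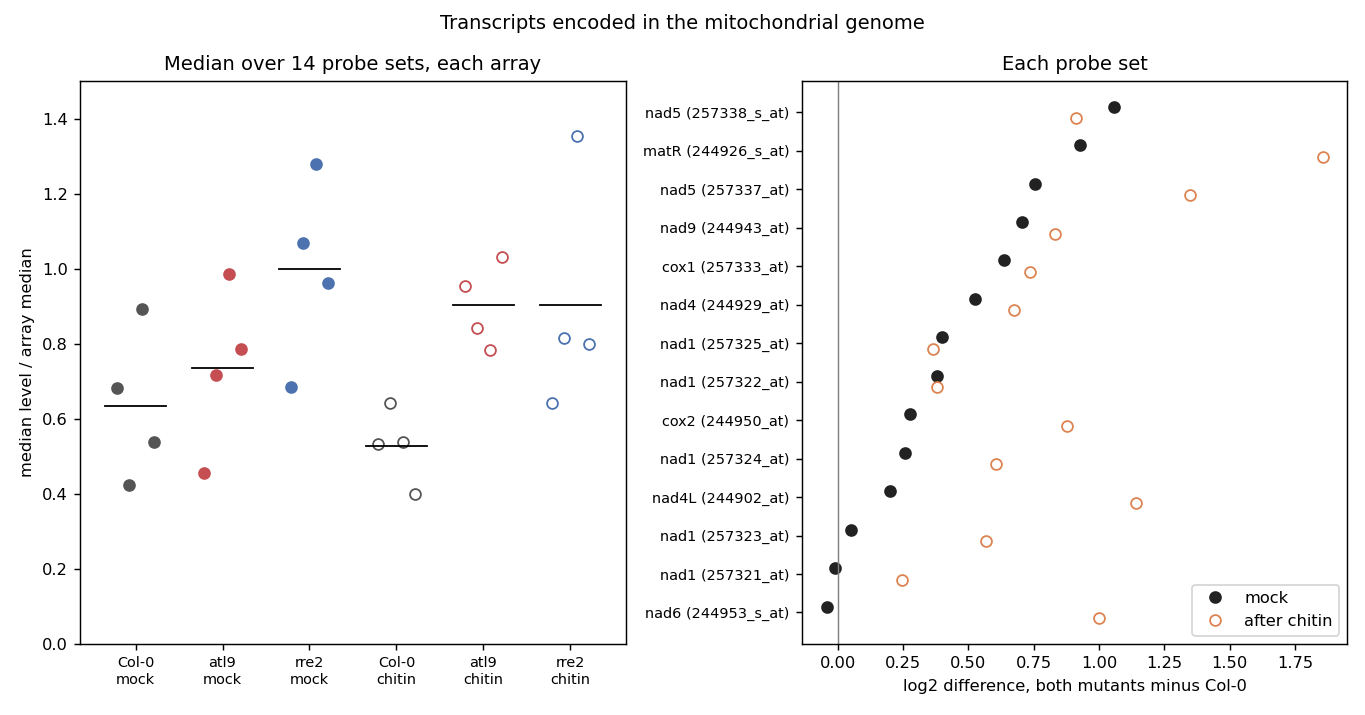
Left, median level of 14 probe sets of the mitochondrial genome on each array, as a multiple of the array median, with the mean of 4 arrays as a line. Right, the log2 difference of both mutants from Col-0 for each probe set in mock (filled) and after chitin (open), with 12 of 14 above 0 in mock and 14 of 14 after chitin.

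The gene lists for defence, hormones and cell biology held no shared basal difference that passed. AT2G36440 is on none of them, only on the list of the study's genes. Members without a named probe set are missing, so the lists are partial, with 3 tested genes for salicylic acid and 1 for ethylene. None of the 5 tested genes of folding in the endoplasmic reticulum, among them *BZIP60* and *BZIP28*, transcription factors of the unfolded protein response, passed even at an unadjusted p under 0.05. *BZIP60* stood at 22.7 ± 3.89 in Col-0, 22.8 ± 3.28 in *atl9* and 24.1 ± 3.96 in *rre2* (SD, n = 4 each). The 20 tested genes of the proteasome and ubiquitin lay between -0.28 and 0.22, with a median of -0.07 beside a median of 0.00098 over all probe sets, and 0 of 20 had an unadjusted p under 0.05. The 5 tested *WRKY* genes, a part of a family that encodes transcription factors of defence, lay between -0.01 and 0.21 with none at that p. Of 8 genes for pathogenesis-related and antimicrobial proteins 1 was higher and 1 lower at an unadjusted p under 0.05. These were *THI2.1*, a thionin (1.70 ± 0.57, SE, adjusted p = 0.587), and *LCR67*, a defensin-like peptide (-0.76 ± 0.29, SE, adjusted p = 0.671).

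Of 3 jasmonate and 4 anthocyanin genes 0 passed in mock, while all passed as higher in the mutants after chitin, where 6.52% of all probe sets did. *JAL23*, a jacalin-type lectin, read 1.2, 2.2, 4.66 and 2.39 in Col-0, 3.75, 11.2, 7.56 and 5.66 in *atl9*, and 14.1, 5.41, 7.24 and 5.33 in *rre2*. Col-0 replicate 3 overlapped *atl9* replicate 1. The difference was 1.57 ± 0.48 (SE, adjusted p = 0.544) in mock and 3.11 after chitin (adjusted p = 0.000294). *JMT*, which makes methyl jasmonate, differed by 0.49 ± 0.50 and *JRG21* by 0.48 ± 0.50 in mock (SE), and both passed after chitin. *DFR*, which encodes dihydroflavonol reductase of anthocyanin synthesis, stood at 11.1 ± 6.24 in Col-0, 10.1 ± 3.20 in *atl9* and 13.0 ± 2.95 in *rre2* in mock (SD, n = 4 each). Its difference was 0.21 ± 0.42 (SE, adjusted p = 0.958) in mock and 2.72 after chitin (adjusted p = 0.000276). The change of the difference between treatments passed for *DFR* (2.51, adjusted p = 0.0376) and for none of the other 6, with 1.53 and an adjusted p of 0.275 for *JAL23*. Of the 8 photosynthesis genes 7 had a positive difference in mock with a median of 0.12 and none at an unadjusted p under 0.05, and 5 passed as lower after chitin, beside 8.57% of all probe sets. For *LHCB4.2*, a light-harvesting protein, the difference was 0.30 in mock and -1.05 after chitin, and the change of -1.35 passed with an adjusted p of 0.0233.

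Enzymes that attach sugars to small molecules were the largest list of enzymes tested. Of 38 UDP-glycosyltransferases 4 were higher and 2 lower at an unadjusted p under 0.05, beside 3.88% and 3.03% of all probe sets. Their median was 0.04, and 0 passed after adjustment. *UGT84A3*, an enzyme of phenylpropanoid glucosylation, read 1.11, 2.21, 1.78 and 2.15 in Col-0, 3.59, 2.39, 2.71 and 4.37 in *atl9*, and 2.81, 2.78, 3.41 and 2.99 in *rre2*. Its arrays did not overlap between mutants and Col-0. The difference was 0.81 ± 0.22 (SE, adjusted p = 0.396) in mock and passed after chitin at 0.80 (adjusted p = 0.0180). *UGT76E11* (0.66 ± 0.20, adjusted p = 0.544) and *UGT76C2*, which glucosylates cytokinins (0.48 ± 0.16, SE, adjusted p = 0.592), were also among the 4. Over the whole list 20 differences were positive and 18 negative, from -0.74 to 1.10. Of 22 cell wall genes 1, *XTH16*, a xyloglucan endotransglucosylase, was lower at an unadjusted p under 0.05, at -0.51 ± 0.22 (SE, adjusted p = 0.679).

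The 22 tested genes that the study lists as differing by genotype were chosen on the *atl9* and Col-0 arrays, so their direction is not independent evidence. In mock 1 of 22 passed, AT2G36440, and at an unadjusted p under 0.05 there were 8 higher and 2 lower, beside 3.88% and 3.03% of all probe sets. AT1G70720, a pectin methylesterase inhibitor, read 0.0641, 0.257, 0.556 and 0.124 in Col-0, 0.501, 0.721, 0.552 and 0.592 in *atl9*, and 0.443, 0.457, 1.41 and 1.12 in *rre2*. Col-0 replicate 3 lay within the mutants. The difference was 1.85 ± 0.49 (SE, adjusted p = 0.396). After chitin 21 of the 22 passed, 11 higher and 10 lower, where 6.52% of all probe sets passed as higher and 8.57% as lower. The study's choice of the list on these arrays bears on that count too.

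**Figure D5:**
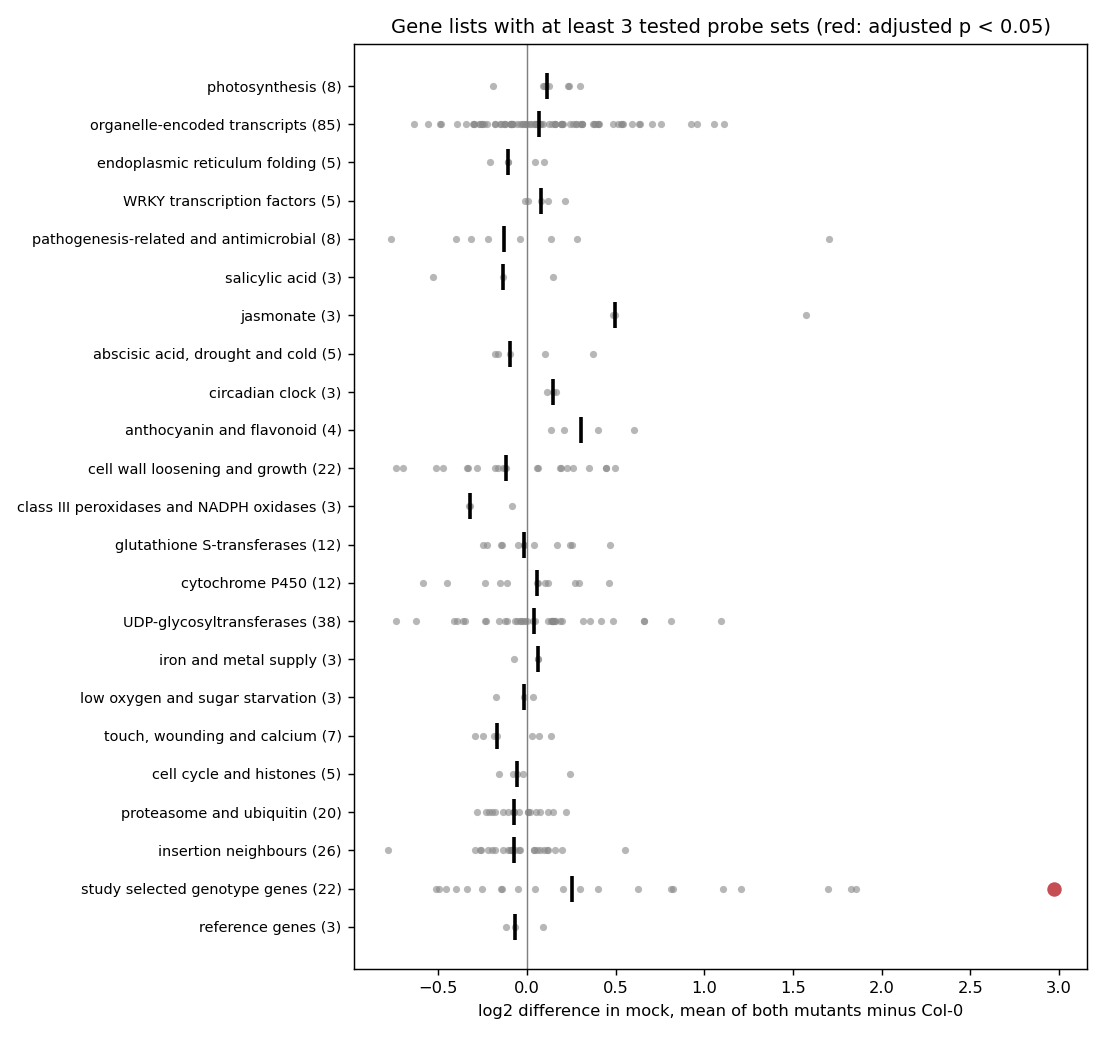
Log2 difference of both mutants from Col-0 in mock for each tested probe set (grey points) of the gene lists with at least 3 tested, the number tested in brackets, and the median as a black bar. One point, AT2G36440 at 2.97, passed an adjusted p under 0.05 (red).

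Genes near the 2 insertions by locus number, not only the adjoining ones, were given as a group of their own. A T-DNA can alter its neighbours, and each line carries only 1 of the insertions. The shared difference averages both lines, so an effect present in only 1 of them enters it at a reduced size. The counts here therefore do not test for an effect on neighbours. Of 26 tested neighbours of either locus 0 passed and 2 were lower at an unadjusted p under 0.05, as were 3.03% of all probe sets. Both lie near *ATL2*, on chromosome 3. AT3G16530 read 76.5, 78.9, 58.6 and 85.3 in Col-0, 51.5, 41.6, 32.7 and 36.9 in *atl9*, and 29.2, 47.1, 47.4 and 69.2 in *rre2*. It was below Col-0 on all *atl9* arrays and on 3 of the 4 *rre2* arrays. The log2 difference was -0.79 ± 0.21 (SE, adjusted p = 0.396), with -0.89 for *atl9*, whose insertion is on chromosome 2, and -0.69 for *rre2*. AT3G16780 differed by -0.26 ± 0.10 (SE, adjusted p = 0.664).

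Taken singly, each mutant differed from Col-0 in as few probe sets. The 2 comparisons share the 4 Col-0 arrays. In *atl9* 2 probe sets (0.0121%) passed, 248547_at as higher and 267084_at as lower (0.00605% in each direction), the latter at -3.41 ± 0.51 (SE, adjusted p = 0.0184). In *rre2* 0 passed in limma, with 1027 (6.21%) at an unadjusted p under 0.05, and no probe set passed in both lines taken singly. For 267084_at the difference of *rre2* from Col-0 was -0.82 ± 0.51 (SE, adjusted p = 0.866). The 2 mutants were also compared directly, with no Col-0 array. Between them 0 passed in limma and 670 (4.05%) had an unadjusted p under 0.05.

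The count of calls between the mutants depended on 1 array. Without *rre2* mock replicate 1, 3 probe sets passed between *rre2* and *atl9* and 7 between *rre2* and Col-0. The array was left out because of its value in 267084_at, which is 1 of the 3, so no test without it is given for that probe set. AT1G17600, of the TIR-NBS-LRR family of disease resistance genes, was among the calls of both comparisons. It read 0.232, 0.210, 0.272 and 0.183 in Col-0, 0.210, 0.273, 0.217 and 0.114 in *atl9*, and 0.249, 0.0280, 0.0235 and 0.0562 in *rre2*. Replicate 1 of *rre2* lay with the other lines and the other 3 arrays lay below both. After chitin AT1G17600 read 0.193 to 0.731 in *atl9*, 0.328 to 0.648 in *rre2* and 0.493 to 0.615 in Col-0, so the lines overlapped.

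AT3G26960 and AT4G33130, called only without that array, had a like distribution. AT3G26960 read 0.236 on *rre2* mock replicate 1 and 0.0332, 0.0910 and 0.0260 on the others, beside 0.164 to 0.303 in Col-0. AT4G33130 read 0.283 on *rre2* mock replicate 1 and 0.0475, 0.0526 and 0.0337 on the others, beside 0.174 to 0.506 in Col-0. The unnamed 261836_at, also called only without that array, read 0.441 on *rre2* mock replicate 1, above every Col-0 mock array (0.160 to 0.432). On *rre2* mock replicates 2 to 4 it read 0.0297, 0.0427 and 0.125. The signals of AT1G17600, AT3G26960, AT4G33130 and 261836_at on the 12 mock arrays were between 3.8 and 87.4. All were below the median of the array, so no fold is given for them. In 3 other calls made only without that array, replicate 1 lay on the same side of Col-0 as the rest of *rre2*. AT5G66890 read 0.544, 0.609, 0.362 and 0.584 in Col-0 and 0.317, 0.233, 0.111 and 0.151 in *rre2*, and replicate 1 was the highest of the 4 but below every Col-0 array. In 260385_at and the *nad5* probe set 257338_s_at replicate 1 (4.61 and 0.651) was the lowest of *rre2* and above every Col-0 array, and both were higher in *rre2* without it, by 1.22 ± 0.21 and 1.43 ± 0.25 on the log2 scale (SE, adjusted p = 0.0370 and 0.0404 in limma).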

How the data were processed

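The authors hybridized labelled cRNA of whole seedlings to ATH1 arrays and made the deposited intensities with Affymetrix software, on a linear scale and scaled to a common target per array. The values are not divided by the array median, although the labels also name that step. The genome build is not given in the sources used here. Instrument settings files gave the scan day and the fluidics module.

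Each array was divided by its median over 22746 non-control probe sets, and log2 was taken with no offset. Tested were the 16530 probe sets that ranked highest by their mean on the 24 arrays. The fits were made by limma 3.58.1 under R 4.3.3, through its functions lmFit and eBayes. All 24 arrays entered 1 fit of 6 group means, since the study names a two-way ANOVA, so the chitin arrays add to the estimate of the spread. P-values are two-sided, adjusted by Benjamini-Hochberg over all 16530, with a threshold of 0.05. The scripts were tested on simulated data. The number of arrays limits the precision. Errors given as SE are those of limma. Genes were named by a table of the array and RefSeq's TAIR10.1 annotation.

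Named genes are the 10 largest differences per direction among single-gene probe sets past the threshold whose groups did not overlap, the gaps filled by the smallest p. To these come up to 3 of smallest p per gene list, insertion neighbours and the smallest p per comparison. *QQS*, *DFR* and the genes that passed without *rre2* mock replicate 1 were added after their values were seen. The comparison, members and gene lists were chosen with earlier results of these data known.

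The alternatives were the 12 mock arrays alone, an offset of 32, quantile normalization, the signals as deposited, all probe sets unfiltered, the 11373 of highest mean, each array left out, the replicate number, scan day or fluidics module as a block, scan day 4 alone, no moderation and a fold of at least 2. Added after seeing the data were 2 laxer thresholds, the 8 mutant arrays as 1 group, the 2 arrays that stood apart left out together, and non-overlap under other scalings. Replicate numbers were not used as a pairing in the reported fit. After removal of group means, 6 of 12 same-numbered mock pairs correlated above 0.1 (mean 0.102), beside 6 of 36 pairs of other numbers (mean -0.034). Of pairs scanned on the same day 8 of 15 did (mean 0.101), beside 4 of 33 of other days (mean -0.045). Whether the replicate number or the scan day lies behind this was not tested.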

Additional observations from a re-analysis of the deposited data

Results flagged for a closer look

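Single arrays stood far from the other 3 of their group in 8 cases (Dixon's test, which flags about 1 in 20 groups of 4 by chance). The number of groups screened is not given here, so the 8 cases cannot be set against that rate. The unnamed 267084_at read 1.62 on *rre2* mock replicate 1, where the other *rre2* arrays read 12.8 to 15.5. On Col-0 mock replicate 2 AT1G72160 read 6.12 and *COR47*, a dehydrin, read 21.0. On Col-0 mock replicate 1 *THI2.1* read 0.214. Among the *atl9* mock arrays *GRX480* read 17.7 on replicate 1, *YAB5* 1.13 and *PRXR1* 196 on replicate 3, and *XTH16* 0.629 on replicate 4. All are multiples of the array median.

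The difference of both mutants from Col-0 depended on the treatment, by the test of the change itself, in 5 named genes. After chitin minus in mock it was 1.07 on the log2 scale for AT5G17930, -0.64 for AT1G78060, -1.35 for *LHCB4.2*, 2.51 for *DFR* and -1.49 for AT3G54400. AT3G54400, which had the smallest p of that test, differed by 0.01 in mock and by -1.48 after chitin (adjusted p = 3.37e-06).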

How the results depend on the processing

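The 3 calls of the shared comparison rest on the spread of few arrays, and the 20 named genes kept their sign under every setting tried (14 of them were tested among the 11373 highest probe sets). These 20 were chosen because their mock arrays did not overlap. Leaving out arrays, or changing the filter or the moderation, could therefore not turn their sign, so the kept sign is no support. The shared count was 1 with the 12 mock arrays alone or an offset of 32, 0 with no filter, on scan day 4 alone or with the fluidics module as a block, 26 at an adjusted p under 0.2 and 1143 at an unadjusted p under 0.05. With 1 array left out it lay between 0 and 4. For *atl9* (2 reported) it was 4 with an offset of 32, 0 with the 12 mock arrays alone, no filter, the scan day as a block, scan day 4 alone, the module block or no moderation, 1 at a fold of at least 2 as well, 1 without the 2 arrays that stood apart, and 0 to 3 with 1 array left out. For *rre2* (0 reported) it was 1 with an offset of 32 or the 11373 highest probe sets, 7 without those 2 arrays, and 0 to 7 with 1 array left out. Between the mutants (0 reported) it was 3 without those 2 arrays and 0 to 3 with 1 left out. Both lines taken singly shared 1 call with an offset of 32 or the 11373 highest probe sets. After chitin (2495 reported) the count was 142 on scan day 4 alone, 447 at a fold of at least 2 and 1284 to 2818 with 1 array left out, lowest without Col-0 chitin replicate 4. The dependence on treatment (199 reported) gave 40 with no filter, 360 in the 11373 highest, 0 on scan day 4 alone, 91 at a fold of at least 2 and 6 to 401 with 1 array left out, lowest without Col-0 mock replicate 3. The list of the study's genes had 0 calls with the mock arrays alone. The fit of scan day 4 has only 2 arrays per group and no filter tests more probe sets. Other causes were not tested. With the replicate number as a block, 3 probe sets passed, 2 higher and 1 lower. The 75th percentile of the deposited signals was higher in the mutants by 9.06 (exact permutation p = 0.0990), where the median differed by -0.15. Probe sets of lower level had wider errors, with a median standard error of 0.23 among the 5510 of lowest level and 0.13 among the 5510 of highest.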
